A study of Mus musculus with 204 samples.

Results

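Calcium-activated potassium channels open when calcium inside a cell rises and let potassium flow out, which brings the membrane back towards or below its resting voltage. 5 genes encode the classical channels: Kcnn1, Kcnn2 and Kcnn3 (SK1, SK2 and SK3, small conductance), Kcnn4 (IK or SK4, intermediate conductance) and Kcnma1 (the pore of BK, large conductance). They were taken by name from the 49492 gene rows of the table, and all 5 were found. Each was described over all picked cells, 66, 66 and 72 on 3 plates, by neuronal status, by detection of Chat, Nos1 and Slc17a6, and by plate.

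SK and IK channels carry calmodulin as their calcium sensor and do not respond to voltage, whereas BK channels respond to both calcium and voltage and shape the end of single action potentials. In the gut wall the slow afterhyperpolarization, a long pause after an action potential, defines the AH class of enteric neurons, many of which are intrinsic sensory neurons. In guinea pig AH neurons this current has been attributed to IK channels. Outside neurons, BK channels are known in smooth muscle, SK3 channels in PDGFRA-positive interstitial cells, and IK channels in endothelium, leukocytes and epithelium.

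The cells came from the longitudinal and circular muscle with the myenteric plexus of VGLUT2-tdTomato mouse distal colon, in which red fluorescence reports Slc17a6 (the vesicular glutamate transporter VGLUT2). The tissue was dissociated, kept in culture overnight, and fluorescent cells were drawn up by hand, so all groups share the reporter, the overnight culture and the hand picking. The labels call every cell a neuron and give the plate, but no animal, culture, age or sex, and how tdTomato is driven is not given in the sources used here. A plate is therefore 1 sample and cells are not replicates: no p-value was computed, and intervals, which are exact Clopper-Pearson 95% intervals, cover counting error only.

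Cells had between 453035 and 14310625 reads, with a median of 4065093, and a gene counted as detected at 10 reads per 1000000 (CPM). A cell was called neuronal where at least 50% of 13 pan-neuronal genes were detected. This held for 54, 45 and 55 cells of plates 1, 2 and 3 and not for 50 cells (12, 21 and 17), although these too are labelled as neurons. Of the 50 other cells 49 carried a marker list of another cell type, as did 54 neuronal cells, while 100 neuronal cells carried none. Smooth muscle was carried by 34 neuronal and 27 other cells, fibroblast by 16 and 16, glial by 11 and 11, endothelial by 11 and 14, interstitial cell of Cajal by 11 and 10, leukocyte by 6 and 9, and epithelial by 16 and 3. The summed level of the pan-neuronal list had a median of 12096 CPM in neuronal cells (range 823 to 31976) and 161.2 CPM in other cells (range 15.0 to 1806). The summed level of the smooth muscle list had a median of 45.7 CPM in neuronal cells (range 1.42 to 65324) and 674 CPM in other cells (range 6.65 to 135043). The summed level of the endothelial list had a median of 0.985 CPM in neuronal cells (range 0 to 1727) and 2.44 CPM in other cells (range 0 to 6979). Pan-neuronal sums overlapped little between the groups, which the split on these same genes brings about, while those of both other lists overlapped widely. Median depth was close on plate 1, but on plate 3 it was 5.59e+06 reads in neuronal cells and 2.00e+06 in other cells.

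In neuronal cells Kcnn3 and Kcnma1 were the usual channel genes and the other genes were each found in a minority. Kcnn3 was detected in 47, 32 and 34 neuronal cells of plates 1, 2 and 3 (73.4% in all, interval 65.7 to 80.2%), against 3 other cells (6.00%, interval 1.25 to 16.5%). Kcnma1 was detected in 43, 26 and 43 neuronal cells (72.7%, interval 65.0 to 79.6%), against 6 other cells (12.0%, interval 4.53 to 24.3%). Kcnn1 was detected in 25 neuronal cells (16.2%, interval 10.8 to 23.0%), against 1 other cell (2.00%, interval 0.051 to 10.6%). Kcnn2 was detected in 17 neuronal cells (11.0%, interval 6.56 to 17.1%), against 2 other cells (4.00%, interval 0.488 to 13.7%). Kcnn4 went the other way, with 9 neuronal cells (5.84%, interval 2.71 to 10.8%) against 13 other cells (26.0%, interval 14.6 to 40.3%).

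**Figure D1:**
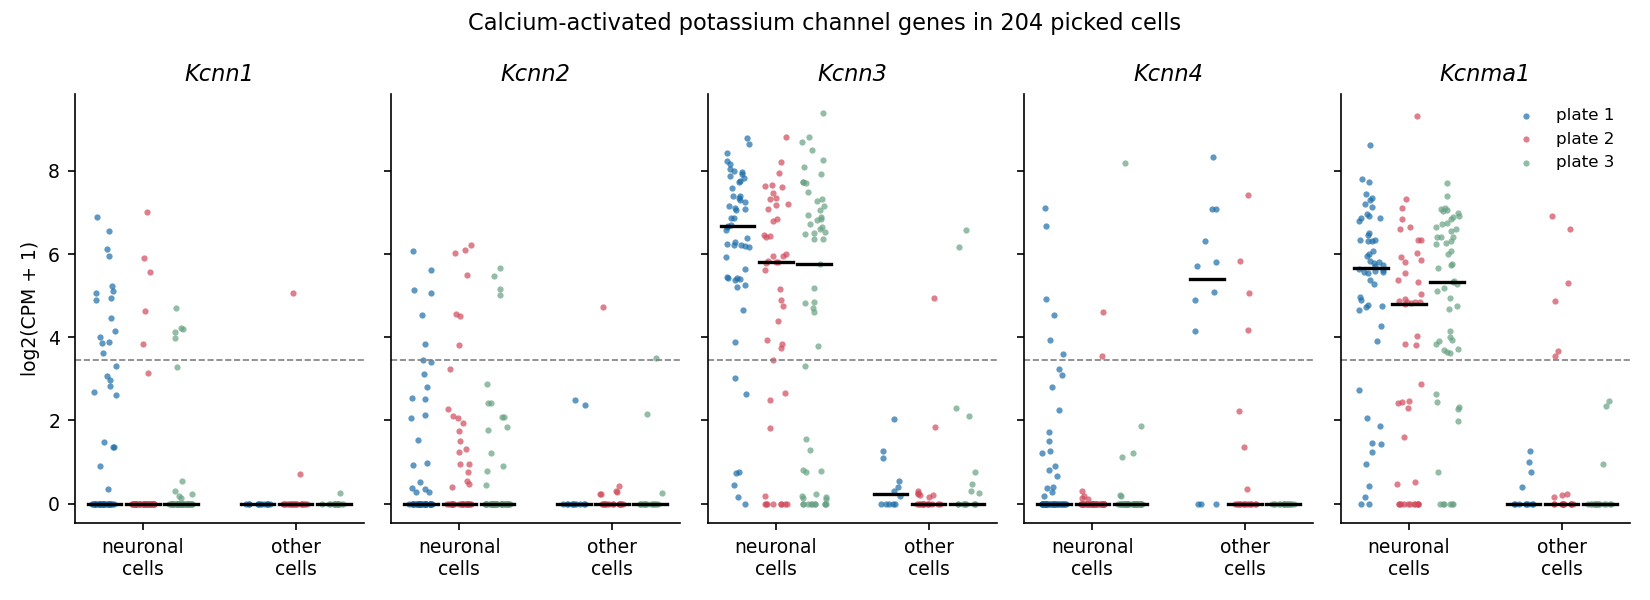
Level of each channel gene in every cell as log2(CPM + 1), neuronal cells left of other cells, coloured by plate; black bars are medians and the dashed line is 10 CPM. Kcnn3 and Kcnma1 fill the neuronal columns, with medians above the line on each plate, while Kcnn4 has its only median above the line in the other cells of plate 1.

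Genes were compared with each other only per length of gene, as mean RPKM (reads per kilobase of gene and per 1000000 reads). In neuronal cells the order of mean levels was Kcnn3 (9.90 RPKM), Kcnma1 (8.25), Kcnn1 (1.44), Kcnn4 (0.87) and Kcnn2 (0.71). Kcnn3 stood above Kcnma1 on each plate, at 12.1, 7.67 and 9.62 RPKM for Kcnn3 and 9.89, 6.60 and 7.99 RPKM for Kcnma1 on plates 1, 2 and 3. The spread over cells was about as large as the means of Kcnn3 and Kcnma1, and larger than the mean for the other 3 genes. For Kcnn4 the SD was 27.3 CPM around a mean of 4.44 CPM. Neighbours in the order therefore did not differ beyond the spread. The gap from Kcnn3 and Kcnma1 to the other 3 genes was wider. Medians were 7.07 RPKM for Kcnn3, 5.56 for Kcnma1 and 0 for the other 3. In other cells the order was different, with Kcnn4 at 4.45 RPKM, Kcnma1 at 0.92, Kcnn3 at 0.41, and Kcnn1 and Kcnn2 both at 0.14. The deposited RPKM imply gene lengths equal to the merged exons in GENCODE M21 for Kcnn1, Kcnn3 and Kcnn4, but 6945 bases for Kcnma1, against 16976 in M21, and 7321 bases for Kcnn2, against 7468. With the M21 lengths Kcnma1 would average 3.38 RPKM and Kcnn2 0.69 RPKM in neuronal cells, which leaves the order of the 5 means as given. The place of Kcnn4 above Kcnn2 rested on its highest neuronal cell, at 57.2 RPKM on plate 3. Without that cell the Kcnn4 mean would fall below that of Kcnn2. On plate 2 Kcnn4 was below Kcnn2, at 0.15 and 1.03 RPKM, and on plates 1 and 3 it was above.

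Neuronal and other cells were compared within each plate as a log2 ratio of their mean CPM after adding 1 CPM to each mean. A gene was called where the ratio was at least 1 in the same direction on all 3 plates. By this rule 4 of the 5 genes were higher in neuronal cells, where 15.2% of the 18817 genes compared were called higher and 4.45% lower. The median ratio of all genes was 0.33, 0.37 and 0.47 on plates 1, 2 and 3. Kcnn3 had ratios of 6.34, 4.97 and 3.18, and Kcnma1 of 5.76, 1.59 and 5.18. The calls of Kcnn1 (3.68, 1.48 and 1.49) and Kcnn2 (1.80, 1.91 and 1.28) rested on low means: with 5 CPM added their mean ratios were 0.99 and 0.78 and both calls were lost. The call of Kcnn1 was also lost, at a mean ratio of 1.38, when neuronal cells had to carry 80% of the list and no list of another type. Kcnn4 had ratios of -3.27, -3.02 and 2.68 and was not called.

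Kcnn3 encodes SK3. It lies on chromosome 3 from 89520164 to 89675132 on the plus strand of mm10 (ENSMUSG00000000794.9), and no other annotated gene overlaps it. In neuronal cells it ran from 0 CPM on each plate to 439, 452 and 669 CPM on plates 1, 2 and 3, around medians of 100.3, 54.9 and 53.4 CPM. In other cells the medians were 0.18, 0 and 0 CPM and the highest cells had 3.08, 29.7 and 94.9 CPM. The ranges overlap, and every plate held neuronal cells with no Kcnn3 read or next to none. The share of neuronal cells with Kcnn3 was 87%, 71.1% and 61.8% on plates 1, 2 and 3. Neuronal cells with Kcnn3 had a median of 4.16e+06 reads and those without it 2.95e+06, and with every cell thinned to 450000 reads the share over all plates was 72.7%.

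The promoter sequences of Kcnn3 and Kcnn4 are shown because Kcnn3 was found mostly in neuronal cells on every plate, while Kcnn4 was found in few neuronal cells and in most other cells of plate 1. They are the 250 bases before the annotated start in RefSeq (GRCm38.p6, plus strand), at chr3:89519914-89520163 and chr7:24370013-24370262. Capitals mark a match, on either strand, to 1 of 3 motifs: the GC box GGGCGG, the AP-1 element TGANTCA and the cAMP response element TGACGTCA.
Kcnn3: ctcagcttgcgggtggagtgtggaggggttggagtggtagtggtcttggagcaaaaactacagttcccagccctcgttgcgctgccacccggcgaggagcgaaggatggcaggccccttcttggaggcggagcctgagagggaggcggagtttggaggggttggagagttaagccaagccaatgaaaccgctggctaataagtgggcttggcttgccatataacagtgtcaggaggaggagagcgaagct
Kcnn4: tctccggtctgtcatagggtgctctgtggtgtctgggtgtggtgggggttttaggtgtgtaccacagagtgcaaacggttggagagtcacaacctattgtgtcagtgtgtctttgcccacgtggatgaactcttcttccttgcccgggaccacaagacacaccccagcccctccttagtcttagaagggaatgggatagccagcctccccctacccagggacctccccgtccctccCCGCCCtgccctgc
The GC box is in 32.7% of 32851 mouse promoters of this length, AP-1 in 6.75% and the cAMP response element in 1.55%. The Kcnn4 window holds 1 GC box on the minus strand and the Kcnn3 window none of the 3 motifs, which says only that these letters are not there. Both windows have a GC content of 58.8%, against a median of 52.4% over all promoters.

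Kcnn3 divided neuronal cells by transmitter class. Chat encodes the enzyme that makes acetylcholine and Nos1 the enzyme that makes nitric oxide; detection of these placed 56 neuronal cells as Chat-only, 50 as both, 30 as Nos1-only and 18 as neither. Kcnn3 was detected in 50 of 56 Chat-only cells (89.3%, interval 78.1 to 96.0%) and 46 of 50 cells with both (92%, interval 80.8 to 97.8%). It was detected in 11 of 30 Nos1-only cells (36.7%, interval 19.9 to 56.1%) and 6 of 18 cells with neither (33.3%, interval 13.3 to 59.0%). The median was 92.9 CPM in Chat-only, 126 CPM in both, 0.73 CPM in Nos1-only and 2.22 CPM in neither. Detection of Nos1 at 10 CPM did not by itself sort the cells. Kcnn3 was in 71.2% of neuronal cells with Nos1 and 75.7% without, and in 90.6% with Chat and 35.4% without. The cells with Nos1 join the Nos1-only cells with those holding both, and the level of Nos1 was not compared with Kcnn3.

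**Figure D2:**
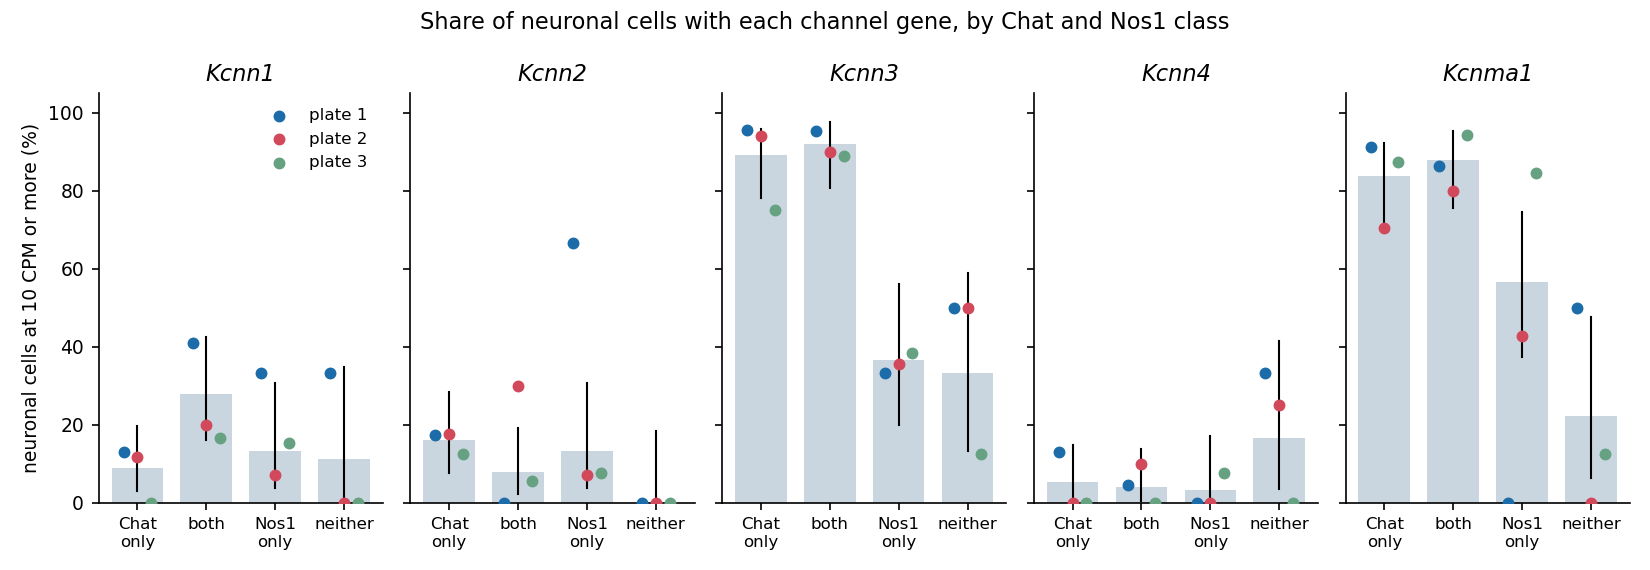
Share of neuronal cells at 10 CPM or more for each channel gene in Chat-only (n = 56), both (n = 50), Nos1-only (n = 30) and neither (n = 18); bars pool the plates, lines are exact 95% intervals and points are single plates. Kcnn3 is at 89.3% and 92% in the classes with Chat and at 36.7% and 33.3% in those without, and every plate is higher with Chat; Kcnma1 differs between plates in Nos1-only cells.

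Over all cells, Chat-only (57) and Nos1-only (31) could be compared on plates 2 and 3, since plate 1 had only 3 Nos1-only cells. These plates share a code in the deposited column names, so the comparison has no plate from outside that code. Kcnn3 averaged 120.02 ± 107.8 CPM in 18 Chat-only cells and 20.6 ± 35.8 CPM in 15 Nos1-only cells of plate 2 (SD over cells). On plate 3 it averaged 112.5 ± 105.5 CPM in 16 Chat-only cells and 16.7 ± 31.5 CPM in 13 Nos1-only cells. Of the 5 genes it alone was called higher by the same rule on both plates, where 5.65% of 18905 genes were called higher and 3.36% lower and the median ratios of all genes were 0.08 and 0.02. With the highest cell of each class and plate left out, its mean log2 ratio was 3.07.

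Kcnn3 also differed with Slc17a6, the gene behind the fluorescent reporter, which is frequent in cells with Chat. Among neuronal cells Kcnn3 was in 83 of 89 with Slc17a6 (93.3%) and 30 of 65 without (46.2%). Mean levels were 142.4, 114.6 and 183.9 CPM with Slc17a6 against 53.6, 52.6 and 31.1 CPM without it on plates 1, 2 and 3. These log2 ratios of 1.39, 1.11 and 2.53 gave a call of higher, where 1.34% of 18970 genes were called higher and 0.907% lower. By both transcripts, Kcnn3 was in 79 of 83 cells with Chat and Slc17a6 (95.2%, interval 88.1 to 98.7%) and 17 of 23 cells with Chat and no Slc17a6 (73.9%, interval 51.6 to 89.8%). It was in 4 of 6 cells with Slc17a6 and no Chat and in 13 of 42 cells with neither transcript (31.0%, interval 17.6 to 47.1%). Within cells with Chat the medians were 131.7, 109.1 and 131.3 CPM with Slc17a6, against 58.1, 38.5 and 23.4 CPM without, over as few as 4 cells without it on plate 1.

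**Figure D3:**
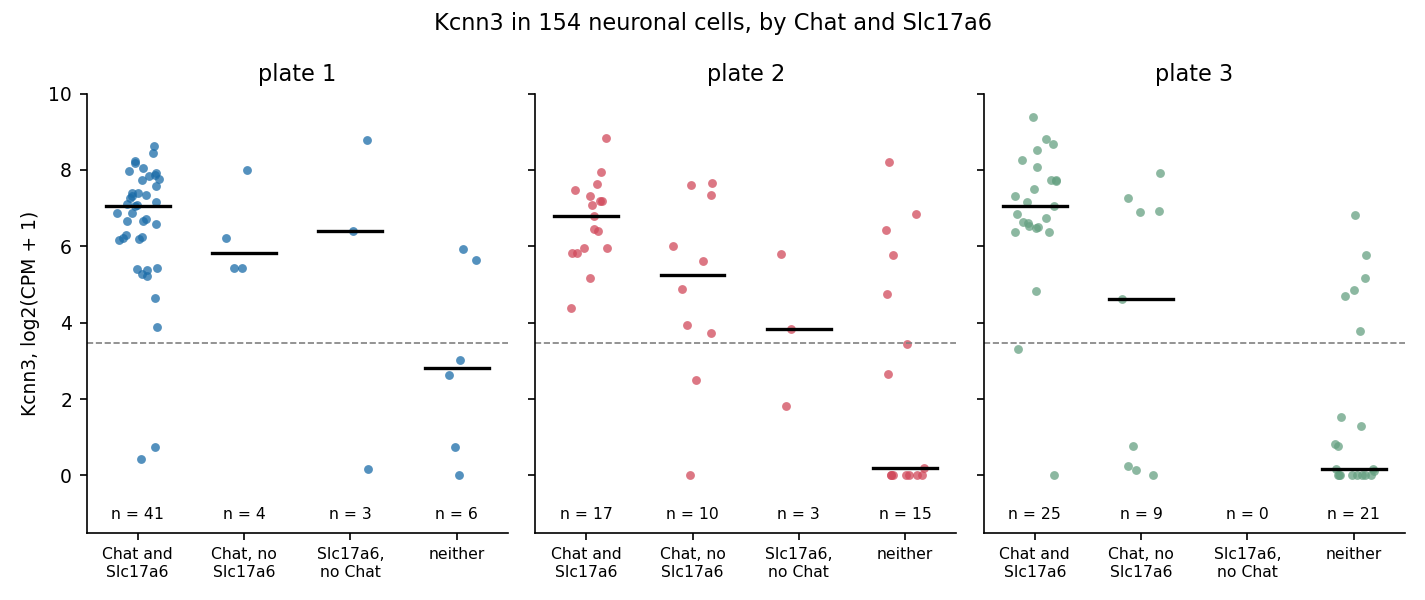
Kcnn3 as log2(CPM + 1) in neuronal cells by detection of Chat and Slc17a6 on each plate; points are cells, black bars medians and the dashed line 10 CPM. Cells with both transcripts have the highest median on each plate, 79 of 83 being above the line, and cells with neither have the lowest.

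Few other cells had Kcnn3. They were plate 2 cell 36 (29.7 CPM), plate 3 cell 21 (70.3 CPM) and plate 3 cell 45 (94.9 CPM), and all 3 carried the smooth muscle and fibroblast lists. Pdgfra, the marker of the interstitial cells known for SK3, was at 5.04, 0 and 0 CPM in these cells, while the smooth muscle gene Tagln was at 3518, 24364 and 3907 CPM. None of 14 other cells with the endothelial list had Kcnn3, a count that allows up to 21.4%. Neuronal cells with a list of another type had Kcnn3 in 70.4% and at a mean of 73.5 CPM, against 75% and 119.7 CPM in those with none; the part of the other cell types was not tested.

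Kcnma1, the BK pore, lies on chromosome 14 from 23289431 to 24014491 on the minus strand (ENSMUSG00000063142.15). Its span overlaps 4 genes on the opposite strand, and whether reads were counted by strand is not given in the sources used here. Overlap of exons was not checked, so whether any of their reads were counted for Kcnma1 is not known. In neuronal cells it ran from 0 CPM on each plate to 393, 637 and 207 CPM on plates 1, 2 and 3, around medians of 50.0, 26.8 and 39.3 CPM. In other cells the medians were 0 CPM on each plate, and the highest cells had 1.41, 120.1 and 4.49 CPM. The share of neuronal cells with Kcnma1 was lowest on plate 2, at 79.6%, 57.8% and 78.2% on plates 1, 2 and 3.

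Depth moved with Kcnma1: neuronal cells with it had a median of 4.94e+06 reads and those without it 2.68e+06. When every cell was thinned to 450000 reads, 73.4% of neuronal cells had Kcnma1, against 72.7% before. A list of another cell type also moved with it. Kcnma1 was in 33 of 54 neuronal cells with such a list (61.1%) and 79 of 100 with none (79%), and its part in the result was not tested further.

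By class, Kcnma1 was detected in 47 of 56 Chat-only cells (83.9%, interval 71.7 to 92.4%), 44 of 50 with both (88%, interval 75.7 to 95.5%), 17 of 30 Nos1-only (56.7%, interval 37.4 to 74.5%) and 4 of 18 with neither (22.2%, interval 6.41 to 47.6%). The plates disagreed for Nos1-only cells, of which 0 of 3, 6 of 14 and 11 of 13 had it on plates 1, 2 and 3. The log2 ratio of mean CPM, Chat-only over Nos1-only, was 1.27 on plate 2 and 0.70 on plate 3, so Kcnma1 was not called. Among cells with Chat, Kcnma1 was in 71 of 83 cells with Slc17a6 (85.5%) and 20 of 23 without (87%). It was in 20 of 42 cells with neither Chat nor Slc17a6 (47.6%).

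All 6 other cells with Kcnma1 were on plate 2, at 10.8, 28.4, 120.1, 38.6, 11.6 and 96.0 CPM in cells 2, 14, 36, 37, 51 and 63. All of them but cell 14 carried the smooth muscle list. On that plate 5 of 11 other cells with the smooth muscle list had Kcnma1, while none of 7 such cells on plate 1 or of 9 on plate 3 did.

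BK channels are tuned by auxiliary subunits, the beta subunits Kcnmb1 to Kcnmb4 and the gamma subunits Lrrc26, Lrrc38, Lrrc52 and Lrrc55. Of these 8 genes 4 passed the filter on the mean and 2 of them were called higher in neuronal cells, where 15.2% of all genes were: Lrrc55 (gamma3) and Kcnmb4 (beta4, the neuronal beta subunit). Lrrc55 was in 50 neuronal cells (32.5%) and none of the other cells, with a mean log2 ratio of 3.46 over plates. Kcnmb4 was in 9.09% of neuronal and 2.00% of other cells, with a mean ratio of 1.78. The other 6 were each in at most 3.25% of neuronal cells, and Lrrc52 in none of them.

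Lrrc55 was more frequent in cells with its pore gene, and likewise in cells with Kcnn3 (39.8%, against 5 of 41 without Kcnn3, 12.2%). It was detected in 42.0% of neuronal cells with Kcnma1 and 3 of 42 without (7.14%). By plate this was 19 of 43, 9 of 26 and 19 of 43 with Kcnma1, against 1 of 11, 2 of 19 and 0 of 12 without. Kcnmb4 did not show this, at 8.93% with Kcnma1 and 4 of 42 (9.52%) without. Cells with Kcnma1 were also the more deeply sequenced, and the part of depth in the pairing with Lrrc55 was not tested. Lrrc55 was also called higher in Chat-only cells (31.6%) than in Nos1-only cells (9.68%), with log2 ratios of 2.41 and 1.34, where 5.65% of all genes were.

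Kcnmb1, the beta subunit known in smooth muscle, was not called, with log2 ratios of 1.45, -3.52 and -3.91 on plates 1, 2 and 3. It was in 5 neuronal cells (3.25%) and 10 other cells (20.0%), and all 10 were among the 27 other cells with the smooth muscle list. In the 6 other cells with Kcnma1, Kcnmb1 was at 176.3, 0, 22.9, 0, 56.7 and 49.3 CPM, in the same order of cells. It was detected in the 4 of them with the highest Tagln levels, from 3518 to 28372 CPM. The Slo relatives Kcnt1 and Kcnt2, which encode sodium-activated potassium channels, and Kcnu1, known as a sperm channel, were all 3 called higher in neuronal cells, against 15.2% of all genes. They were in 42.9%, 29.2% and 18.2% of neuronal cells and in 0 of 50 other cells, a count that allows up to 6.00%.

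Kcnn1 (SK1) and Kcnn2 (SK2) were minority transcripts. Kcnn1 lies on chromosome 8 from 70842049 to 70863258 on the minus strand (ENSMUSG00000002908.17), with 1 annotated gene on the opposite strand, and Kcnn2 lies on chromosome 18 with 4 such genes. Kcnn1 differed by plate: 15 of 54 (27.8%), 5 of 45 (11.1%) and 5 of 55 (9.09%) neuronal cells had it on plates 1, 2 and 3. Its highest cells had 117.97, 127.02 and 25.1 CPM, and without plate 1 its share was 10.0%. None of the 12 other cells of plate 1 had a Kcnn1 read, so that the pooled level in neuronal cells, 7.67 CPM, was at least 111.3-fold higher than the 0.069 CPM that 3 reads over those cells would give. This bound pools reads and does not count cells. By cells, 0 of 12 allows up to 25% (26.5% by the exact interval), close to the 27.8% of neuronal cells with Kcnn1 on that plate.

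Within neuronal cells Kcnn1 was most frequent where Chat and Nos1 were found together, in 14 of 50 cells (28.0%, interval 16.2 to 42.5%). It was in 5 of 56 Chat-only (8.93%, interval 2.96 to 19.6%), 4 of 30 Nos1-only (13.3%, interval 3.76 to 30.7%) and 2 of 18 cells with neither (11.1%). Of those 14 cells 9 were among the 22 of plate 1, and the intervals overlap. The log2 ratios, Chat-only over Nos1-only, were -0.79 on plate 2 and -2.24 on plate 3, and Kcnn1 was not called. On plate 2 the Nos1-only mean of 8.47 CPM rested on cell 58, at 127.02 CPM, and with the highest cells left out the mean ratio over plates was -0.22.

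Kcnn2 was found on every plate, in 11.1%, 15.6% and 7.27% of neuronal cells, with highest levels of 66.6, 73.3 and 49.6 CPM. It was in 9 of 56 Chat-only (16.1%), 4 of 50 with both (8.00%), 4 of 30 Nos1-only (13.3%) and 0 of 18 cells with neither, a count that allows up to 16.7%. The log2 ratios, Chat-only over Nos1-only, were 0.55 and 0.77, short of the call. With the highest cells left out the mean ratio was 1.49, against 0.66 with them, and Kcnn2 then met the call rule. Its share depends on the threshold, since 59 neuronal cells (38.3%) had at least 1 read.

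Kcnn4, the IK channel, lies on chromosome 7 from 24370263 to 24386690 on the plus strand (ENSMUSG00000054342.8), with no overlapping gene. It was detected in 22 cells, 9 neuronal and 13 other. Among neuronal cells it was at 29.1, 136.6, 22.0, 14.4, 11.2 and 101.9 CPM in 6 cells of plate 1, at 23.4 and 10.7 CPM in 2 from plate 2, and at 292 CPM in cell 64 of plate 3. The remaining neuronal cells were below 10 CPM, although 33 neuronal cells in all had at least 1 read. Kcnn4 was in 3 of 56 Chat-only cells (5.36%), 2 of 50 with both (4.00%), 1 of 30 Nos1-only (3.33%) and 3 of 18 with neither (16.7%), with intervals that overlap.

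Most of the neuronal cells with Kcnn4 also held transcripts of other cell types. Of the 9 cells 7 carried the smooth muscle list, as did 27 of all the neuronal cells without Kcnn4. Kcnn4 was in 7 of 54 neuronal cells with another list (13.0%, interval 5.37 to 24.9%) and in 2 of 100 with none (2.00%, interval 0.243 to 7.04%). The pair with no such list, cells 6 and 61, were on plate 1, at 29.1 and 101.9 CPM. The part of the other cell types in the neuronal signal was not tested.

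On plate 3 the neuronal mean rested on 1 cell. Cell 64, a Nos1-only cell that carried the smooth muscle, interstitial and epithelial lists, held all but 28 of the 2484 Kcnn4 reads of the 55 neuronal cells. Against 0 reads in the 17 other cells, the pooled neuronal level was at least 124.9-fold higher than the floor of 3 reads over those cells, and at least 1.45-fold without cell 64. The same cell gave the log2 ratio of -4.34, Chat-only over Nos1-only, on plate 3, where plate 2 had 0.00; with the highest cells left out the mean ratio was 0.05.

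Among other cells Kcnn4 was concentrated on plate 1. There it was in 9 of 12 cells (75%, interval 42.8 to 94.5%), at 134.8, 135.3, 28.6, 54.9, 78.7, 322, 33.0, 16.9 and 51.3 CPM in cells 1, 9, 11, 30, 37, 38, 42, 48 and 62. On plate 2 it was in 4 of 21 (19.0%), at 32.5, 17.0, 56.1 and 170 CPM in cells 10, 12, 36 and 57. On plate 3 it was in 0 of 17, a count that allows up to 17.6%.

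Cells with Kcnn4 on plate 1 were mostly cells with endothelial transcripts, a link noticed after the values were seen. Of the 9 cells 8 carried the endothelial list, against 1 of the 3 without Kcnn4. In these 9 cells Pecam1, an adhesion molecule of endothelium, had a median of 853 CPM and Cdh5, the endothelial cadherin, of 1006 CPM, and each was detected in 8. The ninth, cell 38, had 0 CPM of Pecam1 and 1.94 CPM of Cdh5 but all genes of the leukocyte list, with Csf1r, the receptor that marks macrophages, at 439 CPM, and it had the most Kcnn4. Over all plates Kcnn4 was in 9 of 14 other cells with the endothelial list (64.3%, interval 35.1 to 87.2%) and 4 of 36 without it (11.1%, interval 3.11 to 26.1%). The link did not extend to every plate: Kcnn4 was in 1 of 3 such cells on plate 2 and in 0 of 2 on plate 3. The leukocyte list by itself did not go with Kcnn4, which was in 1 of 9 other cells with that list.

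**Figure D4:**
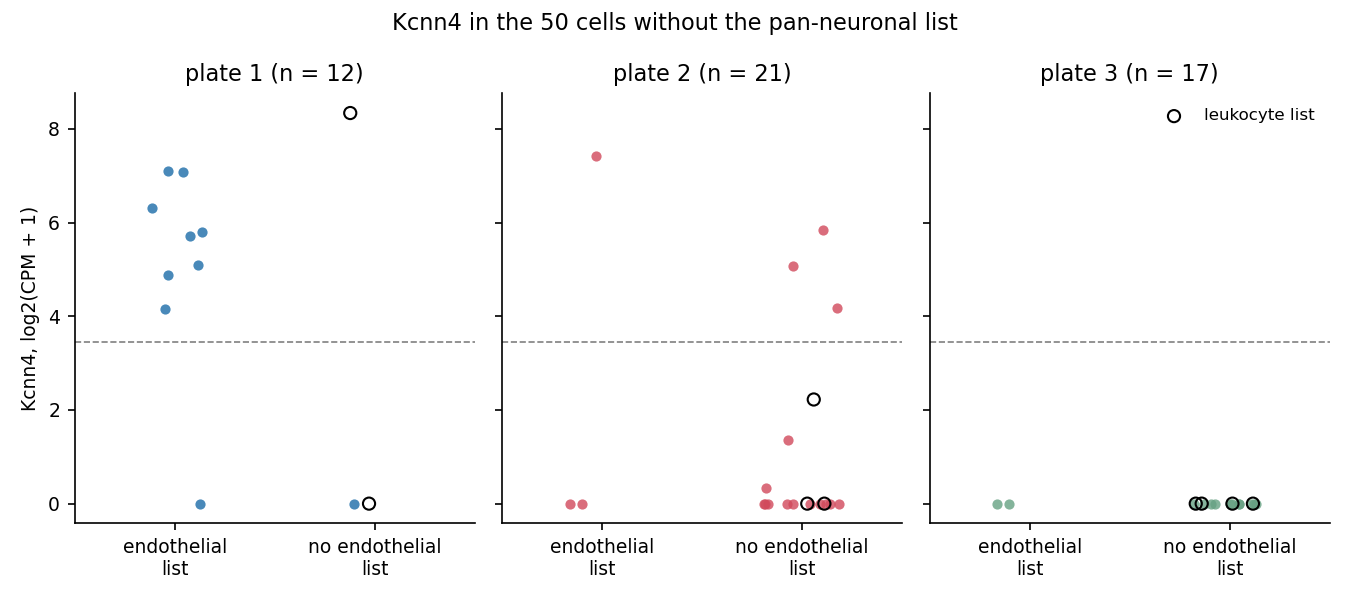
Kcnn4 as log2(CPM + 1) in the 50 cells without the pan-neuronal list, by plate and by whether the cell carried the endothelial list; open circles carried the leukocyte list and the dashed line is 10 CPM. On plate 1, 8 of 9 cells with the endothelial list are above the line, and the highest value, 322 CPM, is a cell with the leukocyte list; no cell of plate 3 has a read.

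Most neuronal cells held 2 channel genes. Of these cells 14 had none of the 5, 34 had 1, 78 had 2, 26 had 3 and 2 had 4, while of 50 other cells 28 had none and 20 had 1. The commonest pair was Kcnn3 with Kcnma1, in 90 neuronal cells (58.4%), where the product of their shares would give 53.4%. A further 23 cells had Kcnn3 without Kcnma1, 22 had Kcnma1 without Kcnn3 and 19 had neither. Their levels ranked together weakly (Spearman rho 0.36 over the neuronal cells, log2(CPM + 1) centred within plates, a description over cells that share libraries and depth). An SK gene of any kind was in 79.2% of neuronal cells, and few of these were without Kcnn3: 7 cells had Kcnn1 without it and 2 had Kcnn2 without it. At least 1 of the 5 genes was in 50 of 50 cells with both Chat and Nos1, 54 of 56 Chat-only, 26 of 30 Nos1-only and 10 of 18 cells with neither.

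**Figure D5:**
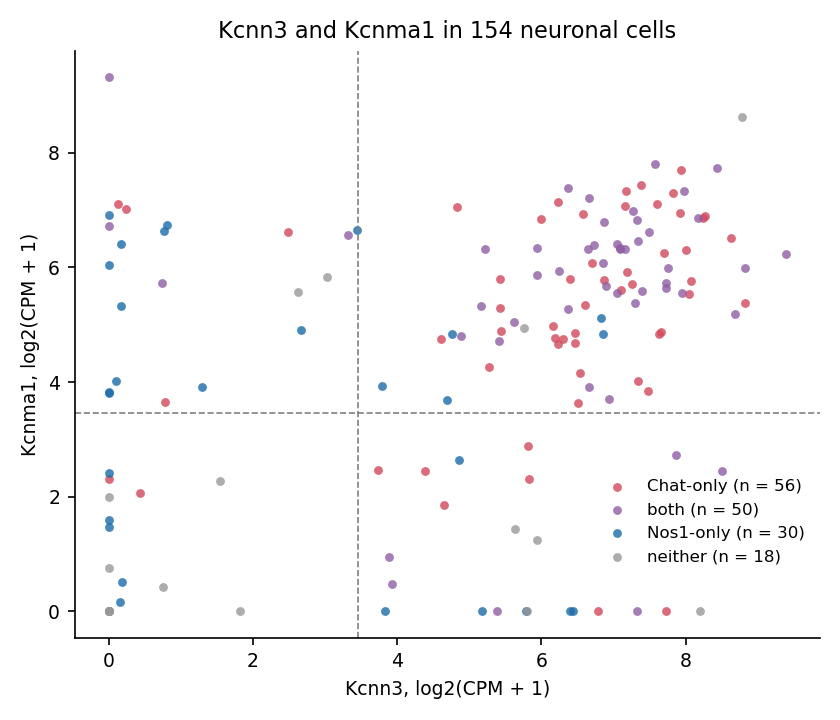
Kcnn3 against Kcnma1, both as log2(CPM + 1), in neuronal cells coloured by Chat and Nos1 class; dashed lines are 10 CPM. The upper right holds 90 cells, mostly with Chat, and the 22 cells of the upper left, with Kcnma1 and no Kcnn3, include 12 Nos1-only cells.

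The genes ranked nearest to a channel gene over neuronal cells were taken by Spearman rho among 10370 genes, as a description. For Kcnn3 they were Unc5c, a netrin receptor (0.65), Slc5a7, the choline transporter of cholinergic neurons (0.60), Pde9a, a phosphodiesterase of cyclic GMP (0.58), Plxna4, a semaphorin receptor subunit (0.57), and Sez6l (0.57). Unc5c was the most even of these, at 0.67, 0.69 and 0.61 on plates 1, 2 and 3. For Kcnma1 they were Dlg2, a scaffold of membrane channels and receptors (0.59), Arhgef3 (0.53), Ypel4 (0.53), Pds5b (0.51) and Rsph9 (0.51). For Kcnn1 the highest was Fbxl12os, at 0.32, and it was -0.17 on plate 2. Kcnn2 and Kcnn4 were in fewer than 20 neuronal cells and were not ranked.

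Genes of the SK and IK channel complex were found in most cells of either kind. The calmodulin genes Calm2 and Calm3 were in 100% and 96.1% of neuronal cells and 100% and 96.0% of other cells. Casein kinase 2 (Csnk2a1, Csnk2a2 and Csnk2b) and the phosphatase Ppp2ca, which set the calcium sensitivity of SK channels, were in 72.7% to 98.1% of neuronal cells. None of the genes named here was called in either comparison. Of 5 IK regulators, Mtmr6, a lipid phosphatase that lowers IK activity, was the 1 called higher in neuronal cells (86.4% against 58.0%), against 15.2% of all genes. Pik3c2b, a lipid kinase that raises IK activity, was called lower in Chat-only than Nos1-only cells (14.0% against 29.0%), where 3.36% of all genes were. The IK-activating kinase gene Nme2 was in 70.8% of neuronal cells, and Phpt1, the opposing histidine phosphatase, in 56.5%, but by plate Nme2 was in 18.5%, 100% and 98.2% and Phpt1 in 18.5%, 80% and 74.5%. Trim27 was in 81.2% of neuronal cells.

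Calcium enters through voltage-gated channels or leaves internal stores. Of 8 calcium channel genes, Cacna1a, Cacna1b and Cacna1e (P/Q-, N- and R-type pores) were called higher in neuronal cells, as were 15.2% of all genes, at 79.2%, 76% and 55.2% of them against 20.0%, 6.00% and 0% of other cells. The L-type pore gene Cacna1c was in 51.3% against 26.0%, without a call. Cacna1e was called higher in Chat-only than Nos1-only cells (52.6% against 25.8%), and Cacna1d, an L-type pore (7.02% against 38.7%), and Cacna1g, a T-type pore found in few cells, were called lower. In this comparison 5.65% of all genes were called higher and 3.36% lower. The Cacna1g call rested on 3 Chat-only and 2 Nos1-only cells with it, close shares of 5.26% and 6.45%. Cacna1e also went with Kcnn3, in 75 neuronal cells with Kcnn3 (66.4% of them) and 10 of 41 without (24.4%). It likewise went with Kcnma1, at 64.3% with that gene and 13 of 42 without (31.0%).

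Of 6 store channel genes 1 was called higher in neuronal cells, a share close to the 15.2% of all genes. It was Ryr2, a ryanodine receptor (20.1% against 2.00%). It had the lowest mean log2 ratio, Chat-only over Nos1-only, of the partner genes: it was found in 10.5% of Chat-only against 67.7% of Nos1-only cells, with log2 ratios of -2.95 and -3.06. Ryr2 was in 15 neuronal cells with Kcnn3 (13.3% of them) and 16 of 41 without (39.0%). Ryr1 was also called lower in Chat-only cells, which makes 2 of the 6 called lower, against 3.36% of all genes. The inositol trisphosphate receptor gene Itpr1 was in 44.8% of neuronal and 48.0% of other cells. Itpr3 was in 18.2% of neuronal and 32.0% of other cells and Ryr3 in 13.6% and 18.0%.

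Of 9 genes of other currents known in AH neurons, 7 were called higher in neuronal cells, against 15.2% of all genes. Among them were Kcnq3 (81.2%) and Kcnq5 (51.3%), which encode M-type potassium channels, and Hcn3 (70.1%), Hcn2 (44.8%) and Hcn4 (22.7%), which encode channels of the hyperpolarization-activated current. Scn11a and Scn10a, sodium channel genes, were in 5.19% and 1.95% of neuronal cells and were not called. Hcn3 went with Kcnma1, in 93 neuronal cells with it (83% of them) and 15 of 42 without (35.7%), a pair picked out after its values were seen. Hcn2 (52.7% against 23.8%) and Kcnq3 (90.2% against 57.1%) moved the same way. Scn11a (4.46% against 7.14%) and Scn10a (0.893% against 4.76%) did not. Cells with Kcnma1 were the more deeply sequenced, at a median of 4.94e+06 against 2.68e+06 reads, and the part of depth was not tested.

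Of 7 receptor genes through which transmitters are known to close the slow afterhyperpolarization, 4 passed the filter on the mean and 3 of them were called higher in neuronal cells, against 15.2% of all genes. They were Adcyap1r1, the PACAP receptor (57.8% against 6.00%), and the serotonin receptor genes Htr7 (31.8% against 0%) and Htr4 (27.3% against 0%). Htr4 was called higher in Chat-only cells (21.1%) than Nos1-only cells (3.23%), with log2 ratios of 3.83 and 2.08, where 5.65% of all genes were. Htr4 was in 39 neuronal cells with Kcnn3 (34.5% of them) and 3 of 41 without (7.32%). The split was similar with Kcnma1, at 40 neuronal cells with it (35.7%) and 2 of 42 without (4.76%). The tachykinin receptor gene Tacr1 was in 4.55% of neuronal cells, and Tacr3 and Grm5 were detected in none, a count that allows up to 1.95%.

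Of 8 markers of intrinsic sensory neurons 5 were called higher in neuronal cells, against 15.2% of all genes, namely Ano2, Vsnl1, Calb1, Nog and Dlx3, and none was called by class. The most frequent were the chloride channel gene Ano2 (20.1%), the cholecystokinin gene Cck (16.2%), the peptide gene Calcb and the calcium-binding protein genes Vsnl1 and Calb1 (13.0% each). Ano2 and Cck, picked out after their values were seen, lay almost wholly among cells with Kcnn3. Ano2 was in 30 neuronal cells with Kcnn3 (26.5% of them) and 1 of 41 without (2.44%), and Cck in 25 (22.1%) and 0 of 41. By plate Cck was in 12 of 47, 5 of 32 and 8 of 34 cells with Kcnn3. Calb1 and Calcb were each in 15.9% with Kcnn3 and 4.88% without, and Nog in 10.6% and 4.88%. Vsnl1, at 13.3% with Kcnn3 and 12.2% without, and Dlx3, at 8.85% and 7.32%, had close shares, and Nmu was in 4.42% and 0%. Cck was also in 4 of the 9 neuronal cells with Kcnn4, against 21 of the neuronal cells without it, so that the first share rests on few cells.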

How the data were processed

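The deposited table holds 1 log2 value per gene and cell, log2(RPKM + 1) as the authors deposited it, for 49492 genes and all cells of the 3 plates. Libraries were plate-based, poly-A selected and without molecular identifiers, per the labels' protocols, and the build was mm10, per the submitters' processing notes; aligner, counter and strand use: not given in the sources used here. Whole reads were recovered from the steps of the values (2375655 values above 0, 100% whole within a tolerance of 1e-04) and turned into CPM. Raw counts had been assumed when the tests were planned, so ratios of mean CPM replaced a count model; with no animal or culture named and 1 sample per plate, nothing was tested.

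Detection was 10 CPM. A list was carried where at least 50% of its genes were detected; the 13 pan-neuronal genes set neuronal status and 7 lists covered other cell types. Genes below a mean of 1 CPM were not compared, and a class needed 5 cells on a plate. A call was a log2 ratio of at least 1 in size, in 1 direction, on every plate compared. Genes named were the 5 channel genes, those of the 9 partner lists (61 genes), and the 5 nearest by Spearman rho among genes detected in at least 20% of neuronal cells. A few genes of these lists are not reported here. Members and lists were chosen with earlier results of these data known. No 2 cells of a plate agreed within counting noise (6846 pairs).

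Over all genes 15.2% were called higher and 4.45% lower, neuronal over other. Higher and lower calls numbered 2 and 0 of 8 for BK auxiliary subunits (4 compared), 3 and 0 of 3 for Slo relatives, 0 and 0 of 7 for the SK complex, 1 and 0 of 5 for IK regulators, 3 and 0 of 8 for calcium channels, 1 and 0 of 6 for stores, 7 and 0 of 9 for AH currents, 3 and 0 of 7 for receptors (4 compared) and 5 and 0 of 8 for sensory markers. Median ratios were 0.28, 3.38, 0.41, 0.09, 1.31, -0.23, 3.42, 0.16 and 2.13 in that order. Alternatives changed the detection level, the pseudocount, the filter, the neuronal set, the classes and the depth, and left out each plate or the highest cell. Python 3.11.15, numpy 2.4.6, pandas 2.3.3, scipy 1.17.1 and matplotlib 3.10.9 were used, and the computation was tested on simulated data.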

Additional observations from a re-analysis of the deposited data

Results flagged for a closer look

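Kcnn4, neuronal over other cells, pointed in opposite directions between plates: the log2 ratio of mean CPM was -3.27, -3.02 and 2.68 on plates 1, 2 and 3. The difference between plates was not tested. On plate 3 the ratio depends on the added 1 CPM, since no other cell had a read, and on cell 64, which held all but 28 of the 2484 neuronal reads. Other cells with the endothelial list numbered 9, 3 and 2 on plates 1, 2 and 3.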

How the results depend on the processing

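At 50 CPM the shares of neuronal cells were 3.90% (Kcnn1), 2.60% (Kcnn2), 57.8% (Kcnn3), 1.95% (Kcnn4) and 41.6% (Kcnma1), with 32.5% holding 2 or more of the genes and 30.5% holding Kcnn3 and Kcnma1. At any read they were 27.9%, 38.3%, 87.7%, 21.4% and 87.7%, with 87% and 79.9%, and 1707 genes were lower in Chat-only than Nos1-only cells. With 80% of the pan-neuronal list and no other list, Kcnn4 was in 2.08% and Kcnma1 in 82.3%, 1386 genes were lower in neuronal cells and the Kcnn1 ratio was 1.38. With classes set by a ratio of 4, 494 genes were higher and 1.6e+02 lower, Chat-only over Nos1-only. Adding 0.1 CPM gave 983 lower. Adding 5 CPM gave 459 and 220, 1751 genes higher in neuronal cells, and ratios of 0.99 (Kcnn1) and 0.78 (Kcnn2). Without the highest cells the Kcnn2 ratio, Chat-only over Nos1-only, was 1.49 and gained a call of higher. For neuronal over other cells this alternative was chosen after seeing the data. The cause was not tested.

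Leaving out 1 plate at a time, the Kcnn1 share ran from 10.0% to 20.2%, that of 2 or more genes from 59.0% to 74.3%, that of Kcnn3 with Kcnma1 from 50.0% to 64.2%, and genes lower in neuronal cells from 1206 to 1439, against 837. The Kcnn4 ratio, neuronal over other, ran from -3.15 to -0.17. For Chat-only over Nos1-only, genes higher ran from 1069 to 3726 and lower from 635 to 2988, and ratios from -2.24 to -0.79 (Kcnn1), -4.34 to 0.0032 (Kcnn4) and 0.70 to 1.27 (Kcnma1); 1 plate alone passes a rule over plates more easily. The Kcnn3 ratios for neuronal over other and Chat-only over Nos1-only kept their direction and their call under every alternative run for them. No paired analysis was possible because the shared numbers only count cells within a plate and no test was made.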
